A study of Homo sapiens with 4 samples.

Results

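BrdU peaks over tetranucleotide repeat tracts were taken from the list of BrdU peaks of the BrdU-Seq experiment. A member was a peak on chromosomes 1 to 22 that overlapped, by at least 1 bp, a perfect tandem repeat of a 4 bp unit of 20 bp or more in hg38 and that overlapped no repeat of a 2 bp unit of that length. Of 33295 peaks in the list, 32710 lay on these chromosomes, 651 overlapped a tetranucleotide tract, and 24 of these were left out because of a 2 bp unit tract. This left 627 member peaks, which merged to 382 separate sites.

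BJ-hTERT cells, a line of human fibroblasts immortalized with telomerase, were released from serum starvation and pulsed with BrdU, a thymidine analog that is built into newly made DNA, before collection at 16, 19, 22, 24 and 28 h. All groups shared this treatment, and 2 repeats were made. The authors called peaks separately for every timepoint, with Input DNA as the control, and collected them in one list, which gives a chromosome, a start and an end, but no timepoint, repeat, score or read count. There was therefore no spread between replicates, no comparison between timepoints and no test. ChIP-Seq of RNAPII and PCNA, collected at 14 and 16 h, was not analysed here.

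Tetranucleotide repeats are microsatellites, arrays in which a short unit is copied head to tail. They gain and lose units when the strands slip against each other during DNA synthesis, and repeat tracts are known as places where replication forks can slow. Because such tracts vary in length between people, several serve as markers in forensic genetics. Units were pooled over rotations and both strands and named by the first of these in the alphabet, so that ATCC stands for the repeat also written GGAT or TGGA, and AGAT for that written GATA.

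The sequences below show what lay under member peaks and, for comparison, an ATCC tract without a peak. They were read from hg38 on the reference strand, and capitals mark the perfect tracts of the named unit. The first stands for the site with the longest tract among those with the most overlapping peaks, the second for a broken array of short tracts, the next 2 for the longest tracts with a peak of their unit, and the last for a tract without a peak close to the median length and repeat context of ATCC loci of 1 tract, which are less repetitive than ATCC tracts as a whole.
AGAT tract under the deepest site, intron 23 of DOP1B, chr21:36257527-36257712: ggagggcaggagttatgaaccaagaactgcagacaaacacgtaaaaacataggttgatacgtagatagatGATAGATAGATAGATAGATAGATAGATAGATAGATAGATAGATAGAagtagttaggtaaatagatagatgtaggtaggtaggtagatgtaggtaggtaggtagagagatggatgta
Start of a site with 5 overlapping peaks, between genes, chr18:22231972-22232211: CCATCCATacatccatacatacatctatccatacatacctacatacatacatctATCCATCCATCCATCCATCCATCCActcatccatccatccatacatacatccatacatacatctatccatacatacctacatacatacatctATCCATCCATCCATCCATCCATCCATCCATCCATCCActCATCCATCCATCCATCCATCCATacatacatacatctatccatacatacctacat
Left edge of the longest ATCC tract, intron 8 of SPNS3, chr17:4462059-4462218: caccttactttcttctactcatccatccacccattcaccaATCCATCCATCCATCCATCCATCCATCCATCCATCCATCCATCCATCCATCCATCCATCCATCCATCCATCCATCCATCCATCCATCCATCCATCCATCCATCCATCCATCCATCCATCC
ACTC tract under a peak, intron 10 of POLG, chr15:89324998-89325144: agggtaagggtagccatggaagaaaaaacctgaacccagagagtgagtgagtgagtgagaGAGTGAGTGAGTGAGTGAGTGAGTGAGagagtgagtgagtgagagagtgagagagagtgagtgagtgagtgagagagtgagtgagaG
ATCC tract without a peak, between genes, chr7:133799942-133800111: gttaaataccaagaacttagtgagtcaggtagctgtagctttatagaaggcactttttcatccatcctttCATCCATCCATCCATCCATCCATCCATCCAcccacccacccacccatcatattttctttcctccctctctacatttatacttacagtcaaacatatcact

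In the sequence from chromosome 18, all or part of 4 perfect ATCC tracts stood in 240 bp. The share of positions that carry the same base as the position 4 bp away, counted in 150 bp on either side of the tract, was 53% for DOP1B, 55.7% for the first tract on chromosome 18 and 58.7% for POLG, and 37.7% for the ATCC tract without a peak. The last value was below the median of all ATCC tracts without a peak, 51.3%.

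Member peaks were spread very unevenly over the units. On chromosomes 1 to 22, 91582 tracts of 33 units were found, of which 13 were set aside because only a peak that was no member overlapped them. Of the other 91569 tracts, 863 (0.942%) were overlapped by a member peak. The ATCC unit held 678 of these 863 tracts, although it made up only 5.08% of all tracts. Its share with a peak was 14.6% (95% Wilson interval 13.6 to 15.6%, 678 of 4653 tracts). That of all other units together was 0.213% (0.184 to 0.246%, 185 of 86916 tracts). Without peaks that were mostly tandem array (70% or more of their bases self-matching at an offset of 120 bp or less), these shares were 7.45% and 0.167%. Tracts under such peaks alone were then set aside, but tracts without a peak in such sequence still counted. The fall is therefore in part set by this choice. All intervals given here are 95% Wilson intervals and cover counting error only. Tracts close to each other often share a peak, so that the tracts are not independent and the intervals are too narrow. Where tracts of one unit within 500 bp of each other were counted once, as a locus, 263 of 2735 ATCC loci (9.62%, 8.57 to 10.8%) and 138 of 80219 other loci (0.172%, 0.146 to 0.203%) had a peak.

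The next unit by number of members was AGAT, with 89 of 6690 tracts under a peak (1.33%, 1.08 to 1.63%). Both rare units with the same bases as ATCC in another order also had high shares. Of 239 ACCT tracts 12 had a peak (5.02%, 2.90 to 8.57%), and of 174 ACTC tracts 9 had one (5.17%). By locus the shares were 2.65% (1.22 to 5.67%, 6 of 226) for ACCT and 5.26% (2.69 to 10.0%, 8 of 152) for ACTC. Of the 12 ACTC member peaks, 6 were overlapping peaks of 1 site at the end of the long arm of chromosome 9. ACAT, with 13 of 1488 tracts (0.874%, 0.511 to 1.49%), was close to the share of all tracts. AATG, with 10 of 3193 (0.313%, 0.170 to 0.576%), lay below it. The share of all tracts rests mostly on ATCC, however. All units but ATCC had 0.213% (0.184 to 0.246%), which the interval of ACAT lay above and that of AATG included.

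The most frequent tetranucleotide tracts of the genome were almost free of peaks. AAAT, the unit with the most tracts, had a peak at 2 of 28088 tracts (0.00712%, 0.00195 to 0.0260%). The shares were 0.103% for AAAC (16 of 15460), 0.0876% for AAAG (12 of 13696) and 0.12% for AAGG (12 of 10019). None of 3583 AGGG tracts had a peak, which allows a share of up to 0.0837%, and none of 860 AATT tracts, which allows up to 0.349%. Here and below, such limits for a count of 0 are 3 tracts divided by the number of tracts. The upper Wilson bounds are higher, 0.107% for AGGG and 0.445% for AATT. The 15 units with fewer than 200 tracts each were summed, and 9 of their 562 tracts, all ACTC, had a peak. In all, 14 units had a member peak.

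BrdU can enter a strand only where that strand has thymidine. The units were therefore also grouped by the strands that carry T, a grouping chosen after the shares had been seen. Among units with T on 1 strand only, such as AAGG and AAAC, 47 of 45081 tracts had a peak (0.104%, 0.0784 to 0.139%). The 13 units other than ATCC that have T on both strands and also C or G reached 1.06% (0.896 to 1.25%, 136 of 12847 tracts). Of these 136 tracts, 89 were AGAT. All units other than ATCC with T on both strands had 0.330% (0.280 to 0.390%, 138 of 41795 tracts). Units made of A and T alone, with the most T, had the lowest share of these groups, 0.00691% (0.00189 to 0.0252%). Whether the T content of a unit plays a part was not tested.

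**Figure D1:**
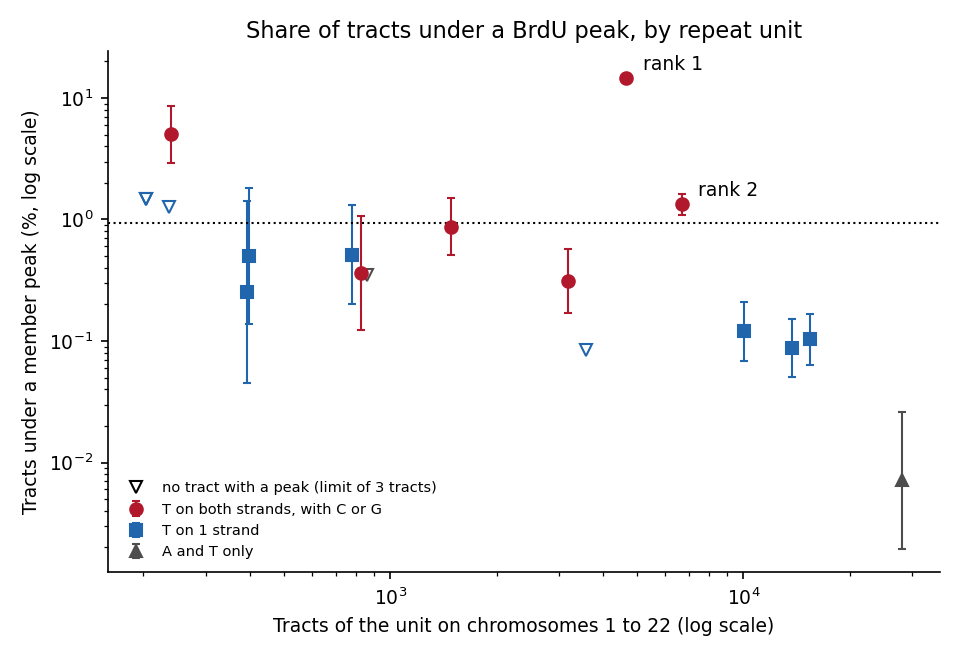
Share of the tracts of each repeat unit under a member peak (percent, log scale) against the number of its tracts on chromosomes 1 to 22 (log scale), for the 18 units with at least 200 tracts. Bars are 95% Wilson intervals, open triangles mark units without any peak at the limit that a count of 0 allows, the dotted line is the share over all tracts (0.942%), and ranks count member peaks. ATCC (rank 1) stands at 14.6% and AGAT (rank 2) at 1.33%, and the unit farthest to the right, AAAT, at 0.00712%.

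Peak cover was highest at the tracts themselves for ATCC and close to them for AGAT. BrdU peaks of any kind covered 13.9% of the centres of ATCC tracts, 5.23% of the positions at 500 bp from the centre, 1.52% at 1 kb and 0.376% at 2 kb, where all of chromosomes 1 to 22 were covered to 0.323%. Around AGAT tracts the cover was 1.18% at the centre, 1.31% at 150 bp, where it was highest, and 0.291% at 1 kb. The frequent A-rich units showed the opposite pattern. The cover at the centres of AAAT tracts was 0.00356%, but it was 0.214% at 500 bp and 0.313% at 1 kb. In the same way it rose from the centre to 1 kb from 0.0876% to 0.310% for AAAG, from 0.0970% to 0.307% for AAAC and from 0.110% to 0.255% for AAGG. How well reads map to such tracts was not tested.

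**Figure D2:**
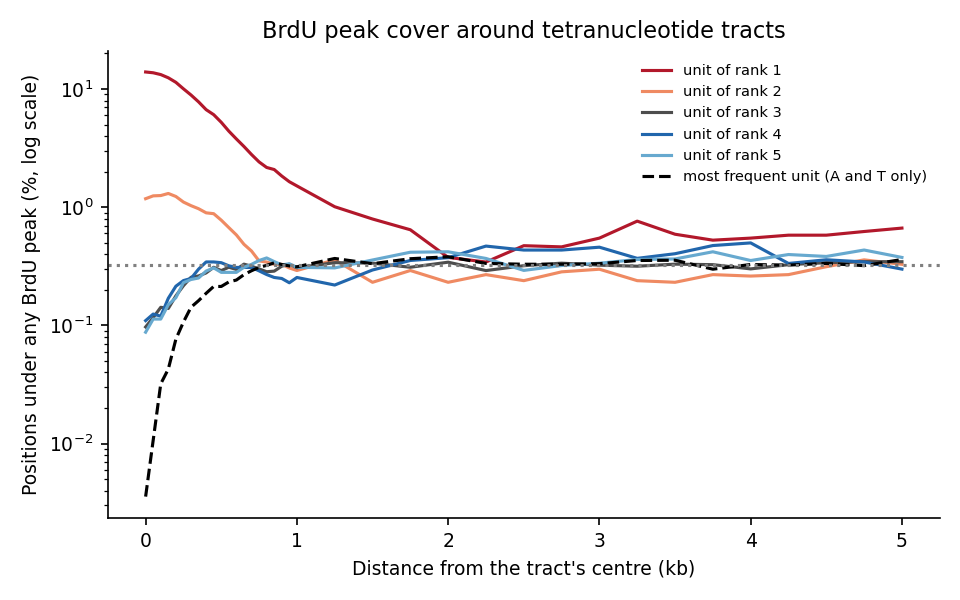
Share of positions under any BrdU peak (percent, log scale) against the distance from the centre of a tract (kb), averaged over both sides, for the units of rank 1 (ATCC), 2 (AGAT), 3 (AAAC), 4 (AAGG) and 5 (AAAG) by member peaks and for the most frequent unit (AAAT, dashed). The dotted line is the share of all bases of chromosomes 1 to 22 under a peak (0.323%). Cover is highest at the centre for ATCC (13.9%) and at 150 bp for AGAT (1.31%), and lowest at the centre for the other units drawn.

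Over all units, tracts with a peak were about as long as tracts without one, and among AGAT tracts they were shorter. The median length was 27 bp (interquartile range 22 to 37) with a peak and 25 bp (22 to 35) without. Within ATCC it was 27 bp (22 to 36, n = 678) against 28 bp (23 to 40, n = 3975), and within AGAT the medians were 35 bp (23 to 45, n = 89) and 43 bp (28 to 48, n = 6601). The share of ATCC tracts with a peak was 15.5% at 20 to 23 bp, 15.0% at 24 to 31 bp, 16.4% at 32 to 39 bp and 11.7% (9.96 to 13.7%) at 40 to 59 bp. Of the 18 longest ATCC tracts, of 60 bp or more, 4 had a peak. For AGAT the share was 2.45% (1.67 to 3.59%) at 20 to 23 bp and 1.01% (0.737 to 1.38%) at 40 to 59 bp.

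At the length limit of the rule, ATCC tracts of 16 to 19 bp, which were just too short to count, had a peak at 529 of 3276 (16.1%). In 375 further peaks the longest tract was 16 to 19 bp, and in 172 peaks with a tract of 16 bp or more it was 20 to 23 bp. These values are a description of the limit.

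The longest ATCC tract of chromosomes 1 to 22, and the longest of any unit with a peak, lay in intron 8 of SPNS3, a gene of the spinster family of transporters. It is 533 bp long (chr17:4462099-4462631), and its only peak, 326 bp wide, lay wholly inside the tract. The longest AGAT tract with a peak (71 bp) was in intron 11 of AMBRA1, a regulator of autophagy, but the peak covered only 8 bp of it. The longest AAAC tract with a peak (38 bp) was in intron 12 of IFT81, a component of intraflagellar transport, and the longest ACTC tract (27 bp) was in intron 10 of POLG, the catalytic subunit of the mitochondrial DNA polymerase. The longest AAAG tract with a peak (61 bp) lay between genes.

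What differed with a peak was the sequence next to the tract. For each tract, the repeat context was measured as the share of positions within 150 bp on either side that carry the same base as the position 4 bp away, leaving out the tract itself. Its median was 66% (interquartile range 57.8 to 72.7%) at ATCC tracts with a peak and 51.3% (37.3 to 63.3%) at those without. The difference of the means, 14.1 percentage points, was 8.25 with flanks of 50 bp and 7.99 against tracts without a peak within 500 kb. At AGAT tracts it was 56.0% (47.7 to 65%) and 35.3% (31.3 to 41.7%). Of the 1183 ATCC tracts with a repeat context under 40%, 7 had a peak. The share then rose in every class, from 7.37% (5.71 to 9.47%) at 40 to 50% and 22.9% (20.5 to 25.6%) at 60 to 70% to 47.7% (38.5 to 57.0%) at 80% or more. AGAT tracts went from 0 of 1178 below 30%, which allows up to 0.255%, to 15.4% (10.3 to 22.5%) at 60 to 70%. The repeat context of AAGG and AAAG tracts reached as far, but none of their classes held more than 0.423% of tracts with a peak. All of these classes were set after the data had been seen.

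**Figure D3:**
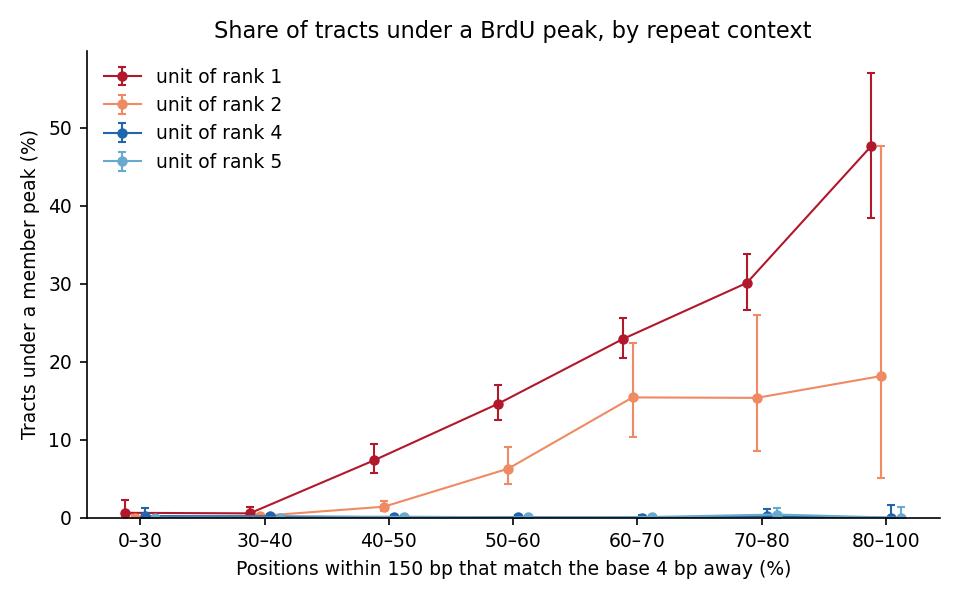
Share of tracts under a member peak (percent) against the repeat context, the share of positions within 150 bp of the tract that match the base 4 bp away (percent, in classes), for ATCC (rank 1), AGAT (rank 2), AAGG (rank 4) and AAAG (rank 5). Points are shares and bars are 95% Wilson intervals. ATCC rises to 47.7% and AGAT to 18.2% (2 of 11 tracts) in the highest class, and the other 2 units stay at or under 0.423%.

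The share with a peak also rose with the number of tracts in a locus. This is not a separate observation, because bases of neighbouring tracts within 150 bp count in the repeat context as well. Of 1917 ATCC loci with 1 tract, 84 had a peak (4.38%, 3.55 to 5.39%). The share was 12.4% (9.51 to 16.0%) with 2 tracts, 28.8% (22.3 to 36.2%) with 4 or 5 and 52.6% (41.6 to 63.3%) with 6 to 10, and 9 of the 14 loci with 11 to 22 tracts had a peak. A locus with more tracts is longer, with a median span of 29 bp for 1 tract and 577 bp for 6 to 10, and offers a peak more bases to overlap. Among AGAT loci the share was 0.703% (0.508 to 0.972%) with 1 tract and 18.2% (8.61 to 34.4%, 6 of 33 loci) with 4 or 5. The AT content of the flanks differed less. The mean AT content of the flanks was 54.3% ± 4.33 (SD, n = 678 tracts) at ATCC tracts with a peak and 54.7% ± 6.51 (n = 3975) without, but the direction turned with flanks of 50 bp and against tracts without a peak within 500 kb, where the mean with a peak was 2.09 percentage points higher. Purines made up 70.6% ± 4.62 of the flanks with a peak, on the strand on which the tract itself is richer in purines, and 63.4% ± 8.84 without. On that strand the unit reads GGAT, in which all bases but T are purines. Flanks that continue the repeat are thus rich in purines, and this difference is not separate from the repeat context.

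Nearby BrdU sites were more frequent around members. Other merged sites within 100 kb, leaving out those within 2 kb, were counted for each ATCC locus. The median was 3 (interquartile range 1 to 5) at loci with a peak and 1 (0 to 2) at loci without. Both the number of tracts and the number of nearby sites went with the share. Of 980 loci of 1 tract without another site within 100 kb, 9 had a peak (0.918%, 0.484 to 1.74%), as had 21 of 182 loci of 1 tract with 6 or more sites nearby (11.5%, 7.67 to 17.0%). Of the loci with 4 tracts or more, 18 of 79 without another site (22.8%, 14.9 to 33.2%) and 22 of 30 with 6 or more (73.3%, 55.6 to 85.8%) had a peak.

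**Figure D4:**
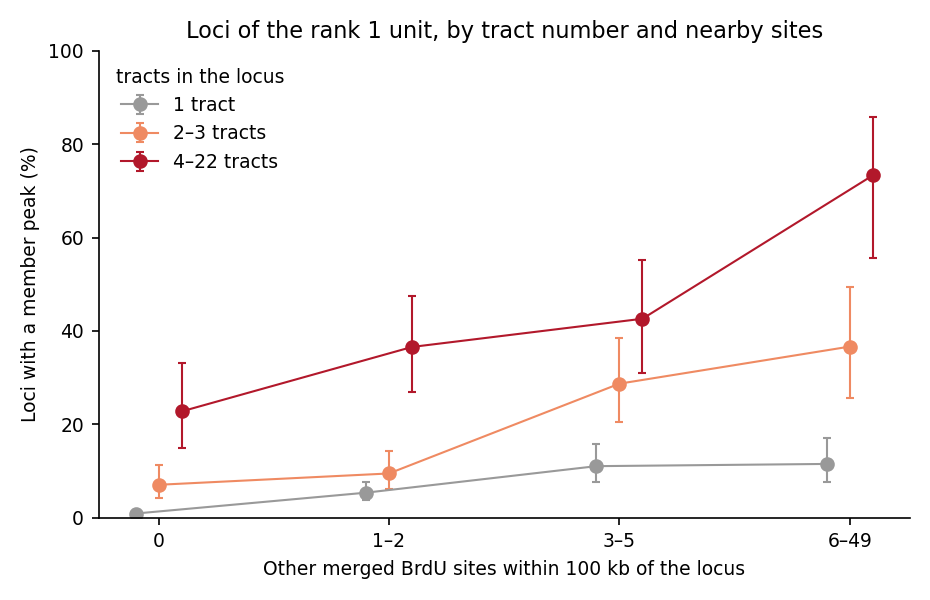
Share of ATCC loci (rank 1 unit) with a member peak (percent) against the number of other merged BrdU sites within 100 kb, for loci of 1 tract, of 2 or 3 tracts and of 4 to 22 tracts. Points are shares and bars are 95% Wilson intervals. In every class of nearby sites the share is highest for loci of 4 or more tracts, up to 73.3%.

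Members lay close to chromosome ends more often than tracts without a peak. Of the ATCC loci with a peak, 27.8% (22.7 to 33.5%, 73 of 263) were within 5 Mb of an end, and of those without, 14.2% (12.8 to 15.6%). For AGAT loci these shares were 26.3% (16.6 to 39%, 15 of 57) and 4.84% (4.32 to 5.43%). Chromosome 19 had the highest share of ATCC loci with a peak, 24.2% (18.1 to 31.5%, 37 of 153), and the lowest was that of chromosome 15, 3.28% (0.904 to 11.2%, 2 of 61). The other 20 chromosomes lay between 3.42% and 13.2%.

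Members lay inside protein-coding genes about as often as outside them, and 235 of 627 (37.5%) lay between genes of any kind. The tract, the longest one where a peak had several, was in an intron of a protein-coding gene in 295 of the 627 member peaks, in an exon in 9, in a UTR in 2, in a lncRNA gene in 82, in another gene in 4, and the rest lay between genes. Of all tracts with a peak, 50.8% (47.4 to 54.1%) were in protein-coding genes, and of all tracts without, 42.5% (42.1 to 42.8%). After weighting to the units of the tracts with a peak, the share without a peak was 49.7%. Within ATCC it was 54.6% (50.8 to 58.3%) with a peak and 52.4% (50.8 to 53.9%) without, and by locus 51.7% and 51.6%. Within AGAT the shares were 29.2% (20.8 to 39.4%) and 33.1% (32 to 34.3%). ATCC tracts in lncRNA genes outside protein-coding genes were fewer with a peak (6.64%, 5.00 to 8.77%) than without (12.3%, 11.3 to 13.4%). Counted by peak, 41 of 442 ATCC members (9.28%) lay in lncRNA genes, and this share was not counted by locus. No tract with a peak was in a coding sequence, where 11 of the 90706 tracts without one lay. ATCC rather than its complement was on the coding strand in 49.6% (44.4 to 54.8%, 176 of 355) of the tracts with a peak and 47.4% (45.2 to 49.5%) of those without.

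In protein-coding genes, members were found in 160 genes, of which 21 had more than 1 merged site and 5 had 3 or more. In these 5, the longest tract under each member peak was an ATCC tract. These 5, and GNA15 below, were named for their number of member sites. Their shares of tracts with a peak are therefore in part set by that choice. Of all ATCC tracts, 14.6% had a peak. CELF5, which encodes an RNA-binding protein that regulates splicing, had 4 sites, 3 of them in intron 1, and 9 of its 11 ATCC tracts had a peak. In MASP2, a serine protease of the complement system, 3 sites lay within intron 6, and 5 of 13 ATCC tracts had a peak. TRPV4, a cation channel, had 3 sites in intron 2 and a peak at 6 of 8 ATCC tracts. In CHD5, a chromatin remodeller, 3 sites were found in introns 1 and 7 with a peak at 7 of 10 ATCC tracts, but those of intron 1 also lay in an overlapping gene, ENSG00000285629. GABBR2, a subunit of the GABA-B receptor, had 3 sites in introns 2, 7 and 9 and a peak at 9 of 11 ATCC tracts. GNA15, a G protein subunit gene next in this order and on chromosome 19 like CELF5, had 2 sites in intron 4 and a peak at both of its ATCC tracts. A gene with many ATCC tracts did not need to have peaks at them. SORCS2, a sorting receptor gene chosen here after its values were seen, held 34 ATCC tracts, and 1 had a peak.

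Among genes with known tetranucleotide repeats, 4 of 32 tracts (12.5%) had a peak, against 0.942% of all tracts, and all 4 were in 1 gene. Of the 8 genes (CNBP, TH, CSF1R, FGA, VWF, F13A1, FES and CYP19A1), VWF alone had tracts with a peak. These were tracts of the units AGAT and ACAT under 1 peak (chr12:5983306-5983897) in intron 40 of the von Willebrand factor gene, the intron that also holds the forensic marker vWA. In 12 genes of common fragile sites, large genes such as FHIT, WWOX and CNTNAP2, none of 512 tracts and none of 25 ATCC tracts had a peak. For all tracts a count of 0 allows a share of up to 0.586%. This is below the 0.942% of all tracts on chromosomes 1 to 22, but above the 0.483% of all loci. For the ATCC tracts it allows up to 12%, where 14.6% of all ATCC tracts and 9.62% of ATCC loci had a peak. These genes held few BrdU peaks of any kind, from 0 in MACROD2 (2058 kb) and AUTS2 (1195 kb) to 7 in NAALADL2 (1372 kb). The lowest density of a chromosome was 6.56 peaks per Mb, on chromosome 13. A count of 0 over their tracts cannot be told apart from few peaks in these genes. The paper reports that BrdU peaks of the first timepoints overlapped significantly with common fragile sites, which was not examined here.

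Some members of the A-rich units lay in repeated parts of the genome. Of the 13 AAAG member peaks, 6 were found between chr21:8203172-8430692, on the short arm of chromosome 21, where 2 of the tracts with a peak and their surroundings were identical over all 320 bp compared. Peaks at such copies cannot be told apart. Members at AAAC tracts had a median of 17.5 other BrdU sites within 100 kb (mean 18.7, n = 16 tracts), whereas the median at AAAC tracts without a peak was 0 (mean 1.89). Their repeat context was low, with a median of 28.7% against 28.0% without a peak.

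Alu elements, the most frequent short interspersed repeats of the human genome, often end in A-rich tracts. The motifs CCTGGGC and CNGTCTC, both found in Alu consensus sequence, were therefore searched together on one strand, on either strand, within 150 bp of each tract. They were present at 11.6% of all tracts and at 18.5% of AAAT tracts, but at 0 of the 678 ATCC tracts with a peak and 33 of the 3975 without (0.830%). Among AAAT tracts, 1 of 5205 with the motifs and 1 of 22883 without them had a peak.

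Members overlapped other peaks more often than peaks elsewhere. Of the 627 member peaks, 446 (71.1%, 67.5 to 74.5%) overlapped another peak, and of the other 32083 autosomal peaks, 38.0% (37.4 to 38.5%). Because the list pools timepoints and repeats, an overlap may join 2 timepoints or 2 repeats, and these cannot be told apart. No base of chromosomes 1 to 22 lay under more than 5 peaks, which is also the number of timepoints. Overlap is mutual, so member peaks of the same site count each other, and the intervals by peak are too narrow. At least 2 peaks overlapped in 52.6% (47.6 to 57.6%) of the 382 sites with a member and in 20.1% (19.6 to 20.6%) of the 24905 other sites, and at least 3 in 20.7% (16.9 to 25.0%) and 3.95% (3.71 to 4.20%). A site with more peaks has more chances that one of them reaches a tract, so this contrast is in part set by the rule. The share of peaks that overlap another was 75.1% (70.9 to 78.9%) for ATCC, 74.2% (64.2 to 82.1%) for AGAT and 50.0% (40.2 to 59.8%) for the other units. Member peaks were also wider, with a median of 356 bp (interquartile range 256 to 561) against 279 bp (220 to 388), but the difference in overlap remained within classes of width. Among peaks from 300 to under 400 bp it was 73.4% (65.5 to 80.03%, n = 139) against 39.6% (38.4 to 40.8%, n = 6501), and among those of 600 bp or more 91.5% (85.5 to 95.2%) against 79.1% (77.5 to 80.6%).

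**Figure D5:**
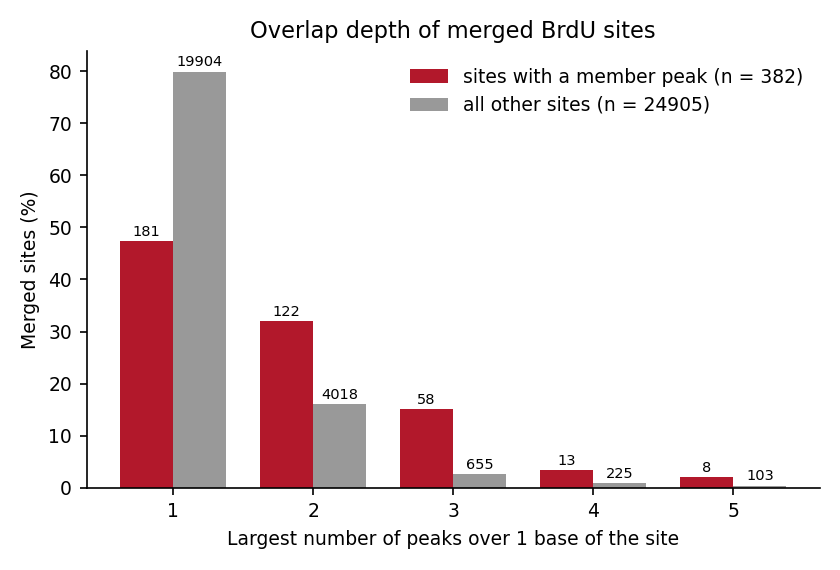
Share of merged BrdU sites (percent) by the largest number of peaks over 1 base of the site, for the 382 sites with a member peak and the 24905 other sites of chromosomes 1 to 22. Numbers above the bars count sites. Depth 1 holds 181 sites with a member and 19904 others, and 79 sites with a member have a depth of 3 or more.

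Repetitive peak sequence went with overlap as well. A peak was called a tandem array where, shifted against itself by some distance of 120 bp or less, at least 70% of its bases were equal. This held for 35.9% of the members (225 of 627) and for 9.43% of the other peaks, and in 91.1% of the member arrays the best offset was a multiple of 4 bp. Because members hold a tandem repeat of a 4 bp unit by the rule, and its bases count in this match, these values are in part set by the rule and are a description. Other peaks that were tandem arrays overlapped another peak in 76.4% (74.8 to 77.8%), a share like that of members. Members that were not tandem arrays did so in 68.7% (64 to 73.0%), and other peaks that were not in 34.0% (33.4 to 34.5%). At ATCC sites, at least 2 peaks overlapped in 47.7% (38.7 to 57.0%, n = 111) of the sites with 1 tract and 83.3% (64.1 to 93.3%, n = 24) of those with 4 or 5, and the median width of these sites was 363 and 530.5 bp. The longest tract of a site differed little with depth, with a median of 30.5 bp at a depth of 1, 33.0 bp at 2 and 30.0 bp at 3 or more.

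The deepest sites, those with 5 overlapping peaks, numbered 8. In DOP1B, a gene of endosomal traffic on chromosome 21, the site of 618 bp in intron 23 (chr21:36257570-36258187) was made of 5 member peaks, and its first 4 peaks began within or before the AGAT tract of 46 bp shown above. The site between genes on chromosome 18 (chr18:22231972-22232843) held 11 ATCC tracts under a single peak. In intron 1 of DNAH10, an axonemal dynein heavy chain gene, 3 of 5 peaks were members, at AGAT and ACCT tracts. In intron 4 of AACS, which encodes acetoacetyl-CoA synthetase, 4 of 5 peaks overlapped a single ATCC tract of 20 bp. The other 4 deepest sites were ATCC sites, 3 of them between genes and 1 in a lncRNA gene. In 2 of them only 1 of the peaks reached the tract.

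Tracts took up little of the peaks and did not mark their centres. The tracts of a member covered a median of 10.6% of its bases (interquartile range 6.39 to 20.8%). The centre of the longest tract lay a median of 107.5 bp (99.0 to 115 bp, 95% interval of the median) from the centre of the peak, which is 0.598 of the distance from centre to edge. In 499 of the 627 members (79.6%) this tract lay wholly within the peak. A single tract was found in 328 members, and up to 14 in others. In 23 members the tracts were of more than 1 unit. Perfect tracts of 20 bp or more of other unit lengths were rare in members and in other peaks. None of the members held a tract of a 1 bp unit, which 0.0374% of the other peaks did. Tracts of 3, 5 and 6 bp units were found in 1, 2 and 1 members (0.159%, 0.319% and 0.159%) and in 0.358%, 0.898% and 1.05% of the other peaks.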

How the data were processed

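BrdU-Seq was done in synchronized BJ-hTERT cells. Reads had been mapped by the authors to hg38 (Bowtie 2), and MACS2 v2.1.0 had been used for peaks of every timepoint, with Input DNA as the control. The authors deposited 1 list of positions in bp, without counts or signal, so the depth is unknown. File starts were taken to count from 0, and positions are printed counting from 1. Perfect tracts were found in hg38, and genes came from GENCODE version 44, with introns numbered in the canonical transcript. Overlapping or touching peaks were merged to sites. The members, gene lists and measures were chosen with earlier results of these data known. Named genes are those at the 8 deepest sites, the 6 genes with the most sites, those at the longest tracts of the 6 units with the most members, and 2 lists, of genes with known tetranucleotide repeats and of fragile site genes. Some of these are not reported here. The search and the overlap counts were tested on simulated data. The analysis used matplotlib 3.10.9, SciPy 1.17.1, pandas 2.3.3 and NumPy 2.4.6 under Python 3.11.15.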

Additional observations from a re-analysis of the deposited data

Results flagged for a closer look

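Chromosomes X and Y, which the rule for members leaves out, carried 48 peaks over tetranucleotide tracts, 24 on each. They were looked at because 51 of their 6610 tracts (0.772%, 0.587 to 1.01%) had a peak, above the 0.0454% that a count of 0 would allow. Any count over 3 passes this limit, and the share on chromosomes 1 to 22, 0.942%, lay within the interval. Of these 48 peaks, 44 lay in the first pseudoautosomal region, at the tips of the short arms, where X and Y pair in meiosis and where all 2771479 bases compared were the same on both in hg38. In this region, 22 of 23 such X peaks were overlapped by a Y peak at the same position, and reads from X and Y cannot be told apart there. Tracts with a peak made up 5.47% (3.76 to 7.90%, 26 of 475) of the tracts of the region on X and 0.0208% (0.00367 to 0.118%, 1 of 4811) of those outside it on X. For ATCC tracts these were 15 of 105 (14.3%, 8.85 to 22.2%) in the region and 0 of 99 outside it. BrdU peaks of any kind in the region numbered 109 of the 179 on X. How reads that map equally well to both chromosomes were placed was not tested.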

How the results depend on the processing

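The share of ATCC was above those of AGAT and of all other units together under every alternative tried for them. Other units were not recomputed under most alternatives. The limits are that the list pools timepoints and repeats, that no replicate, depth or Input coverage was analysed, and that tracts close together share peaks. No paired analysis was possible because no peak carries a repeat number or a timepoint, and leaving out a replicate was not possible for the same reason. Of 74 values under alternatives, 29 stayed within the interval of the reported value (for the number of members, within 1.5 times) and 4 changed sign. Causes were not tested.

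Members numbered 1002 with a minimum of 16 bp, 319 with 30 bp and 382 after merging. Tracts with a peak were 1.06% at 24 bp, 1.08% at 30 bp, 0.826% where the whole tract lay inside the peak, 1.65% with peaks within 250 bp and 0.510% without peaks that were tandem arrays. For ATCC the share was 13.4% at 30 bp, 13.02% with the tract inside, 20.5% within 250 bp and 7.45% without arrays, and, as alternatives added after the data were seen, 9.62% by locus and 13.2% without the 5 Mb at chromosome ends. For AGAT it was 1.75% at 16 bp, 1.05% at 30 bp, 1.00% inside, 2.41% within 250 bp, 1.08% without arrays, 0.983% by locus and 0.966% without the ends. For all units but ATCC it was 0.299% at 16 bp, 0.173% inside, 0.647% within 250 bp, 0.167% without arrays, 0.172% by locus and 0.176% without the ends.

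The difference of median lengths, with a peak minus without, was 2 bp, but -1 bp with tracts without a peak weighted by unit and 0 bp without arrays. Within ATCC it was -3 bp without arrays. The difference in the share inside protein-coding genes was 8.29 percentage points, 1.06 after weighting by unit and 1.75 for all annotated genes. Within ATCC it was 2.19, but -3.91 for all annotated genes. The difference in overlap with other peaks was 33.2 percentage points, 23.5 for peaks within 1 kb and, added after the data were seen, 28.6 among peaks from 300 to under 500 bp. The median distance to the peak centre was 84.2 bp for tracts wholly inside. The difference in mean repeat context was 26.1 percentage points, 20.8 with flanks of 50 bp, 21.1 with 500 bp, 24.0 against tracts within 500 kb and 14.1 weighted by unit. Within ATCC it was 14.1, 8.25 with 50 bp and 7.99 against tracts within 500 kb. The difference in mean AT content at ATCC tracts was -0.441 percentage points, 0.03998 with 50 bp, -0.848 with 500 bp and 2.09 against tracts within 500 kb.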
